A study of Mus musculus with 12 samples.

Results

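The hearts of mice were examined 4 h after an inhibitor of the Lats kinases, TDI-011536, against the hearts of control mice. A transcript was tested where 3 or more of the 6 heart libraries each held 10 or more of its reads, which was so for 22148 of the 51884 listed (42.7%). The hearts came from 6- to 8-week-old Swiss Webster mice, an outbred strain, with 3 mice in each group and 1 library per heart. The treated mice had received 200 mg/kg by intraperitoneal injection. The labels name the compound LKI-2 and list no agent for the controls, although the injection is described for every animal, whereas the study states that controls were injected with the vehicle Kolliphor. The groups were therefore set by the sample names. The RNA came from homogenates of heart tissue, so every cell type of the organ contributed to each value. In such bulk samples, fewer cells of a type and less RNA per cell cannot be told apart.

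Lats1 and Lats2 are the last kinases of the Hippo pathway. When active they phosphorylate the coactivators Yap and Taz and so keep them out of the nucleus, where Yap and Taz would otherwise act with Tead transcription factors on genes of growth, cytoskeleton and matrix. In the adult heart, cardiomyocytes rarely divide, and fibroblasts, endothelial cells and leukocytes make up the rest of the tissue. The comparison asks which transcripts differed in the heart 4 h after the inhibitor.

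The transcripts carry UCSC identifiers, which no table used here pairs with gene names. Pathway members, cell type markers and sequences were therefore not analysed here, the labelled tissue was not checked against its markers, and transcripts are described by identifier or by length. Across the tested transcripts, the lowest rank correlation (Spearman's rho) of a heart with another heart was 0.853 to 0.874, and the highest with any liver of the same mice was 0.612 to 0.657. These transcripts were chosen by heart reads alone, and 4772 of them did not pass the same minimum in the liver. The contrast is therefore no check of the labelled tissue. Of the 22148, 16017 had at least 10 reads in all 6 hearts and 1877 in exactly 3. Among those 1877, the third-highest count had a median of 15.3 reads, against 4.59 for the 2115 transcripts that reached 10 reads in exactly 2 hearts and were left out. The median length was 2872 bases for tested and 1975.5 bases for untested transcripts.

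The heart of treated mouse 3 stood apart. It held 12618288 reads, against 18766326 and 19179672 in the other treated hearts and 20074046 to 20533986 in the controls. It gave the highest value of the 6 hearts for 28.4% of the tested transcripts and the lowest for 29.0%, where each other heart gave 13.2% to 15.5% and 13.2% to 15.7%. The median SD between a pair of hearts on the log2 scale was 0.188 for treated mice 1 and 2, but 0.337 and 0.349 for each of them with treated mouse 3. Transcripts below 1000 bases took 12.5% of its reads, against 14.0% to 15.1% elsewhere. None of the 6 library measures tested, depth and composition among them, passed the test between the groups (exact two-sided permutation test, adjusted p = 0.3 for each), where 3 against 3 mice cannot give a p below 0.1. Even so, every treated heart had fewer reads than every control (unadjusted p = 0.1 by that test). Transcripts with 10 reads numbered 19882 to 21458 in treated and 21769 to 22090 in control hearts (unadjusted p = 0.1 by that test). The count minimum admitted 230 transcripts through control hearts alone and 96 through treated hearts alone. The main counts and the named transcripts are given with and without treated mouse 3.

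By edgeR in the 6 hearts, a small set of transcripts differed after TDI-011536, mostly upward. With edgeR's quasi-likelihood test and Benjamini-Hochberg adjustment over all 22148 transcripts, 95 were higher (0.429%) and 23 were lower (0.104%) in treated hearts at an adjusted p under 0.05, 118 in all (0.533%). The higher transcripts rose by a median of 1.54 on the log2 scale, or 2.90-fold, and 78 of the 95 rose over 2-fold. The lower transcripts had a median log2 fold change of -2.32, and 21 of the 23 fell over 2-fold. Of the 23, 6 reached the minimum of 10 reads through the control hearts alone, so that they had to differ to be tested, whereas none of the 95 reached it through the treated hearts alone. The median of -2.32 and the 21 include these 6. Over all tested transcripts the median log2 fold change was -0.03 (interquartile range -0.35 to 0.30). The 95 transcripts took 0.439% to 0.456% of reads in control hearts and 1.10% to 1.20% in treated hearts. The 23 took 0.0780% to 0.0787% in control hearts and 0.0254% to 0.0272% in treated hearts. Complete separation of the 3 treated from the 3 control hearts was itself common, at 2384 transcripts in the higher direction (10.8%) and 2615 in the lower (11.8%), and it held for all 118 called transcripts. It was found for 3656 (16.5%) and 3891 (17.6%) without treated mouse 3. Every transcript separated with 3 treated hearts stays separated with 2, so these counts could only rise, and the rise shows no clearer separation.

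The size of this set and its upward excess depended on the test and on single libraries. Without treated mouse 3, edgeR called 101 transcripts higher (0.456%) and 35 lower (0.158%), while 1466 higher and 1445 lower had an unadjusted p under 0.05. Of the 95, 66 were called again (69.5% of the 95 and 65.3% of the 101), and of the 23, 16 were called again (69.6% of the 23 and 45.7% of the 35). The transcripts lost, 29 higher and 7 lower, kept their direction, with adjusted p of at most 0.0871. Leaving out any 1 of the other 5 hearts left no call by edgeR. The smallest adjusted p was then 0.142, 0.159 and 0.114 without control mouse 1, 2 or 3 and 0.0921 and 0.0568 without treated mouse 1 or 2, although before adjustment 1044 to 1460 higher and 601 to 1199 lower transcripts had a p under 0.05. All 118 kept their direction and an unadjusted p under 0.05 whichever heart was left out. They were selected in these same 6 hearts, so this describes the set and gives no further support. DESeq2's Wald test called 783 higher (3.56%) and 444 lower (2.02%) of 22019 in the 6 hearts, 635 to 768 higher and 202 to 613 lower without 1 of those 5 hearts, and 1124 higher (5.08%) and 983 lower (4.44%) without treated mouse 3. All 118 were among DESeq2's calls in each of these fits, which use the hearts that selected them. limma-voom called 115 higher (0.519%) and 22 lower (0.0993%) in the 6 hearts. As each mouse gave 1 heart library, the p-values rest on the spread between these libraries. The spread between mice and that from the division of reads were not separated, and the tests also pool spread over transcripts.

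**Figure D1:**
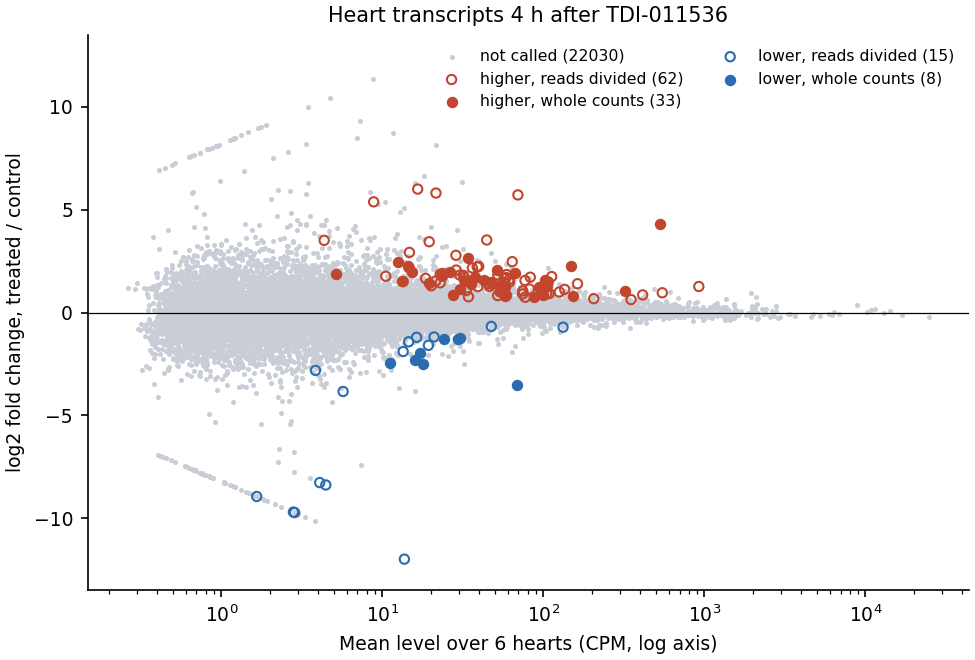
Every tested transcript is placed by its log2 fold change (vertical axis, treated over control) and by its mean over the 6 hearts in reads per 1000000 (CPM, log axis), with the 95 higher transcripts in red, the 23 lower in blue, and filled symbols for transcripts with whole read counts. Called transcripts lie mostly between 10 and 1000 CPM, and the sloping lines of gray points at the left are transcripts with no read in any heart of 1 group.

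The transcript with the smallest p among the higher ones was uc011xbr.1, of 2402 bases. It had 1068, 830 and 1220 reads in control hearts and 19120, 20890 and 10605 in treated hearts. Every treated heart lay far above every control, and treated mouse 3 was the lowest treated heart also after scaling to depth. The mean rose from 50.7 ± 10.4 CPM to 1005 ± 152 CPM (SD, n = 3 mice each), a log2 fold change of 4.31 ± 0.22 (SE), or 19.8-fold (edgeR, adjusted p = 0.0185). The log2 fold change was 4.43 without treated mouse 3 (edgeR, adjusted p = 0.0213). Its estimated counts were whole in every heart, which is what reads that fit no other transcript give.

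Among the other higher transcripts called by edgeR, DESeq2 and limma-voom, the one with the highest mean was uc007daq.2, of 2807 bases. It had 11522, 10587 and 11274 reads in control hearts and 23554, 22708 and 17607 in treated hearts. The groups did not overlap and the spread within each was small. The mean rose from 542 ± 29.4 to 1303 ± 82.6 CPM, a log2 fold change of 1.27 ± 0.08, or 2.40-fold (edgeR, adjusted p = 0.0185). Without treated mouse 3 it was 1.22 (edgeR, adjusted p = 0.0285), and in 1 fit of all 12 libraries the call was lost (edgeR, adjusted p = 0.0758).

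The lower transcript with the smallest p by the same rule was uc008kkb.2, of 3564 bases, also with whole counts. It had 556, 632 and 688 reads in control hearts and 85, 98 and 79 in treated hearts. All treated hearts lay well below all controls. The mean fell from 30.5 ± 3.58 to 5.40 ± 0.758 CPM, a log2 fold change of -2.50 ± 0.18, or 5.65-fold (edgeR, adjusted p = 0.0207). It was -2.61 without treated mouse 3 (edgeR, adjusted p = 0.0285). The lower transcript with the highest mean was uc007rfe.1, of 2746 bases, with 3377, 3385 and 3368 reads in control hearts and 1777, 2019 and 1201 in treated hearts. Its controls were nearly equal and every treated heart lay below them. The mean fell from 164 ± 2.36 to 100.5 ± 7.19 CPM, a log2 fold change of -0.71 ± 0.08, or 1.64-fold (edgeR, adjusted p = 0.0372), and was -0.67 without treated mouse 3 (edgeR, adjusted p = 0.0454). Its call was lost with no filter on low counts and in 1 fit of all 12 libraries (edgeR, adjusted p = 0.0649 and 0.101). For these 4 transcripts, leaving out 1 of the other 5 hearts gave an adjusted p of 0.0568 to 0.212 by edgeR, and all 4 remained called by DESeq2 whichever heart was left out. The rule for naming required no overlap between the groups and a DESeq2 call in these same hearts. Both therefore describe the 4 transcripts and give no further support.

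**Figure D2:**
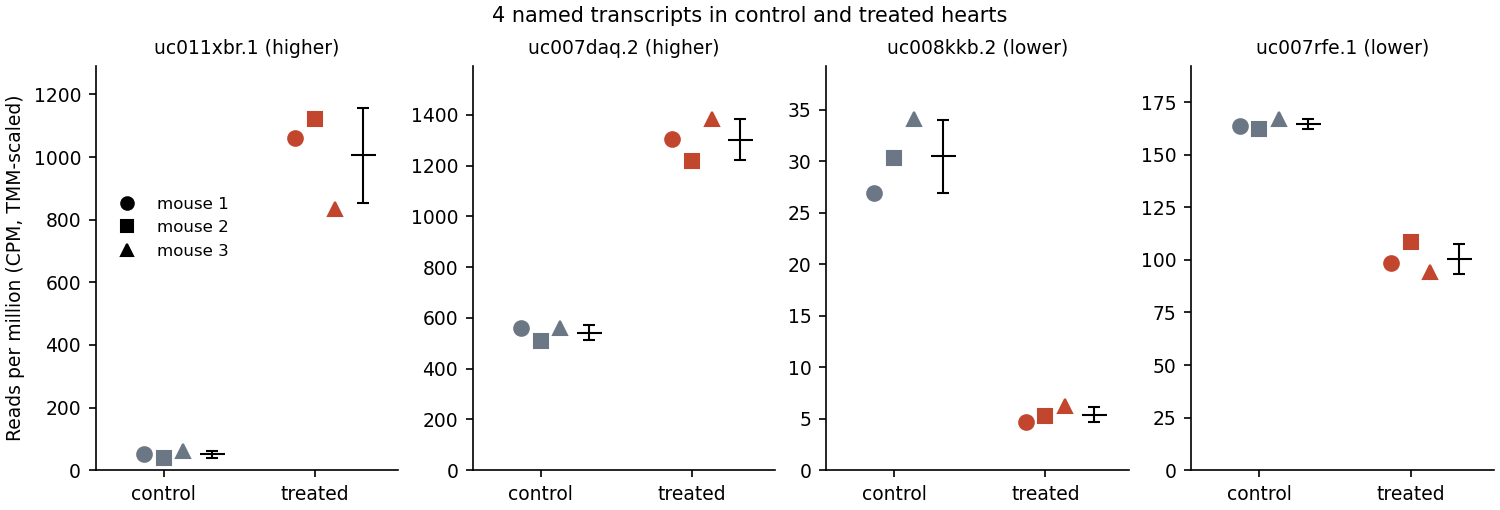
Levels of the 4 named transcripts in CPM (vertical axes from 0, 1 scale per panel) are shown for each control heart (gray) and treated heart (red), with the mean and SD of 3 mice beside the points and a symbol shape per mouse. In each panel all treated hearts lie on 1 side of all control hearts, as the rule for naming required.

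Beyond the 4 named transcripts, those with the largest changes are described by length, as they were chosen after their values were seen. Of the 95 higher transcripts, 5 rose over 16-fold, uc011xbr.1 among them. A transcript of 3072 bases had 59, 41 and 59 reads in control hearts and 2876, 2984 and 1133 in treated hearts, and its log2 fold change was 5.72 (edgeR, adjusted p = 0.0185). Treated mouse 3 was the lowest of the treated hearts for it, and without that mouse edgeR's adjusted p was 0.0188. A transcript of 4068 bases had 12, 13 and 6 reads against 472, 358 and 667. A transcript of 2842 bases had 13, 15 and 18 reads against 278, 775 and 887, and one of 2984 bases had 9, 5 and 11 against 156, 285 and 353. For these last 3 transcripts treated mouse 3 was the highest heart, and limma-voom called none of them (adjusted p = 0.265, 0.357 and 0.348), while edgeR's adjusted p without treated mouse 3 was 0.0327, 0.0491 and 0.0497. The 4 besides uc011xbr.1 had reads divided among transcripts.

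Of the 23 lower transcripts, 6 fell over 16-fold. Each had at most 1 read in every treated heart and 63 to 808 reads in every control heart, none had whole counts, and limma-voom called none of them. These are the 6 that the count minimum admitted through the control hearts alone, so their separation is a description and no support for a lower level. A transcript of 1866 bases had 307, 566 and 808 reads in control hearts and 0 in all 3 treated hearts, at least 449-fold lower when the treated group is set at a floor of 3 reads over the group. Without treated mouse 3 it was not called, and neither was one of 5060 bases with 155, 228 and 120 reads against 0, 1 and 0. A transcript of 4540 bases had 73, 63 and 68 reads against 0, which by the same floor was at least 54.5-fold lower. Floors cover counting error only, not the division of reads. A transcript of 3343 bases had 115 reads in each control heart after rounding and 0 in each treated heart. The other 17 lower transcripts had log2 fold changes down to -3.84, and 6 of the 17 fell over 4-fold.

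The median shifts of these transcripts lay close together in the 3 treated mice. For the 95 higher transcripts, the median log2 ratio to the control mean (CPM plus 0.5) was 1.43, 1.42 and 1.52 in treated mice 1, 2 and 3. Treated mouse 3 was the strongest of the 3 for 51 transcripts and the weakest for 22. For the 23 lower transcripts, the medians were -2.18, -2.01 and -2.20. As these transcripts were selected by the same 6 hearts, the ratios describe the set and test nothing.

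**Figure D3:**
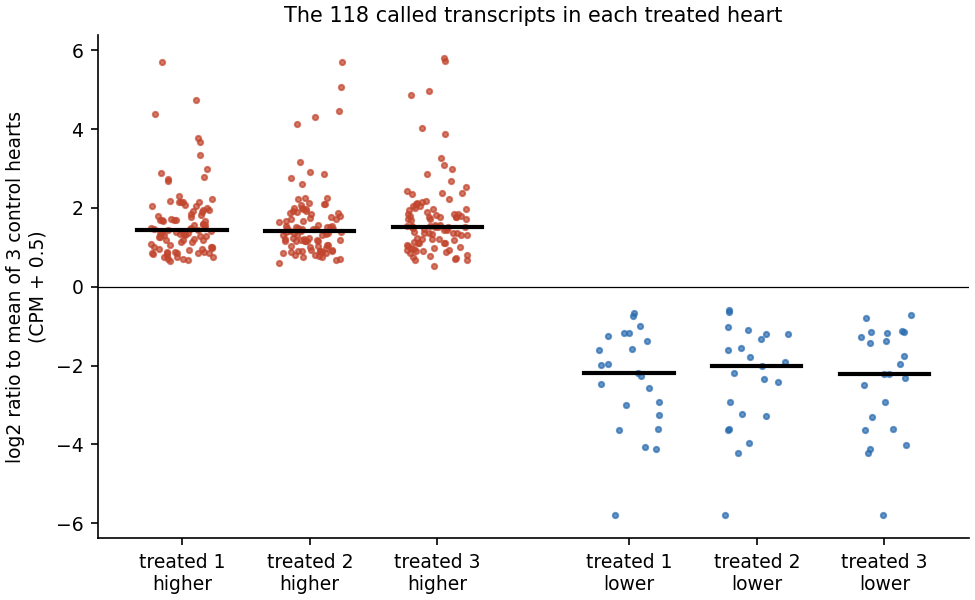
Each point is 1 of the 118 called transcripts in 1 treated heart, plotted as its log2 ratio to the mean of the 3 control hearts (vertical axis, CPM plus 0.5), with the 95 higher transcripts at the left, the 23 lower at the right and a bar at each median. The 3 medians are 1.43, 1.42 and 1.52 for the higher and -2.18, -2.01 and -2.20 for the lower transcripts.

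Most calls lay between 10 and 1000 CPM. Calls were found from below 1000 bases to at least 8000 bases, and the share called higher rose over the length classes. Of 8136 transcripts at a mean of 10 to 100 CPM, 72 were higher and 15 lower, and of 1517 at 100 to 1000 CPM, 20 were higher and 1 lower. Of 9871 transcripts at 1 to 10 CPM, 3 were higher and 7 lower. None of 2509 transcripts below 1 CPM and none of 115 at or above 1000 CPM was called by edgeR, while DESeq2 called 33 higher and 37 lower of the former and 10 higher and 0 lower of the latter. The share over all tested transcripts, 0.533%, is under 1 call in 115 but more than 1 in 2509. In the fit without treated mouse 3, edgeR called 77 higher and 24 lower at 10 to 100 CPM, 22 and 2 at 100 to 1000 CPM, 2 and 9 at 1 to 10 CPM and again none in the lowest and highest class. All treated hearts lay above all controls for 7.48% of transcripts at 1 to 10 CPM, 25.2% at 100 to 1000 CPM and 20.9% at or above 1000 CPM, against 10.8% over all tested transcripts. They lay below all controls for 12.3%, 4.35% and 6.09% in these classes, against 11.8% over all. The median SD on the log2 scale fell from 0.414 between controls and 0.552 between treated hearts below 1 CPM to 0.0611 and 0.184 at or above 1000 CPM.

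By length, 3 higher and 1 lower were called of 1747 transcripts below 1000 bases, 11 and 5 of 4851 from 1000 to under 2000 bases, and 43 and 9 of 9097 from 2000 to under 4000 bases. Of 5639 transcripts from 4000 to under 8000 bases, 31 were higher and 7 lower, and of 814 of at least 8000 bases, 7 were higher and 1 lower. From the shortest to the longest class, 0.172%, 0.227%, 0.473%, 0.550% and 0.860% were higher, against 0.429% over all. The share called lower was 0.0572% to 0.124% in these classes. The 131 transcripts of at least 12000 bases held no call by edgeR, where the overall share of 0.533% is again under 1 call, and 8 higher and 1 lower by DESeq2. When treated mouse 3 was left out, edgeR called 2 higher and 1 lower below 1000 bases, 11 and 5 from 1000, 46 and 17 from 2000, 38 and 11 from 4000 and 4 and 1 from 8000 bases, with none from 12000. Over all tested transcripts, the ratio of treated mouse 3 to the controls moved with length. Its median log2 ratio was -0.21 below 1000 bases, -0.16 from 1000, -0.06 from 2000, 0.00 from 4000 and 0.08 at 8000 bases or more. For treated mouse 1 the medians lay between -0.04 and 0.06, and for treated mouse 2 between 0.03 and -0.06, falling with length. The part of this slope in the calls was not tested, beyond the fit without treated mouse 3.

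**Figure D4:**
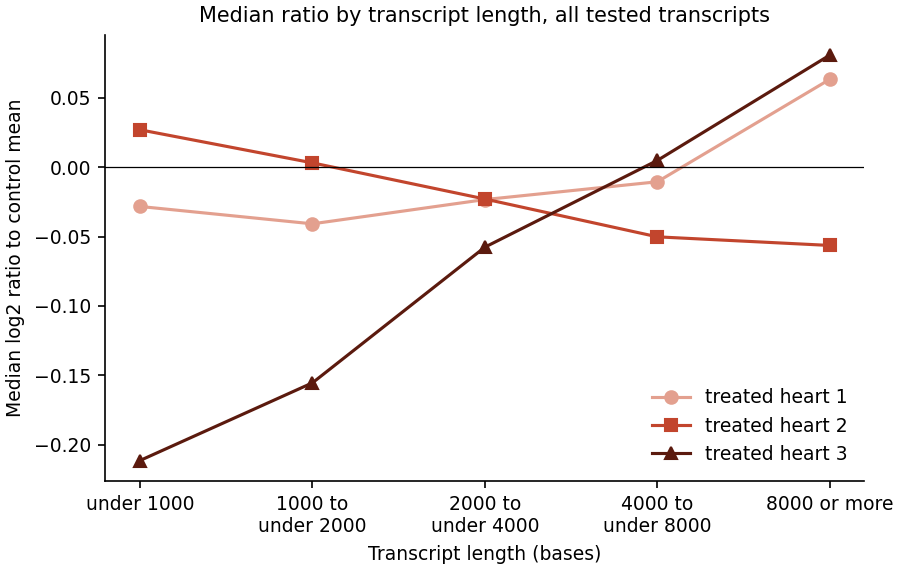
The median log2 ratio of each treated heart to the mean of the control hearts (vertical axis, CPM plus 0.5) is plotted over all 22148 tested transcripts in 5 classes of transcript length in bases (horizontal axis), 1 line per treated mouse. The line of treated mouse 3 rises from -0.21 to 0.08, whereas those of treated mice 1 and 2 stay between -0.06 and 0.06.

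Transcripts with whole counts made up a larger share of the calls than of the tested transcripts. The estimated counts were whole in all 6 hearts, within 1e-06, for 3510 of the tested transcripts (15.8%), which is what undivided reads give. Their median SD on the log2 scale was 0.113 between controls and 0.241 between treated hearts, against 0.261 and 0.413 for the 18638 with divided reads. They also lay at a higher level, with a median of 14.7 CPM against 6.63 CPM, and the share called differed by level. The parts of level and of read division in their larger share of calls were not tested. Of the 95 higher transcripts, 33 had whole counts (34.7%), as did 8 of the 23 lower (34.8%). When the 3510 were fitted alone, 166 were higher (4.73%) and 130 lower (3.70%), with median log2 fold changes of 1.26 and -1.03, and 97 and 70 of them changed over 2-fold. Of these, 6 higher and 9 lower transcripts reached the count minimum through 1 group alone and had to differ to be tested. DESeq2, fitted to all tested transcripts, called 150 of the 166 and 103 of the 130. In contrast to the fit of all transcripts, edgeR still called whole-count transcripts whichever heart was left out. Without control mouse 1, 2 or 3 these were 89, 89 and 108 higher and 43, 38 and 45 lower, and without treated mouse 1 or 2 they were 129 and 134 higher and 63 and 79 lower. Without treated mouse 3 they were 234 higher and 225 lower, of which 162 and 125 were among the 166 and 130.

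At the far ends of the whole counts stood transcripts with no read in 1 group. A transcript of 1330 bases had 0 reads in each control heart and 21, 30 and 31 in treated hearts, at least 34.1-fold higher by the floor of 3 reads over the group. It reached the count minimum through the treated hearts alone and had to differ to be tested, so its heart values are given with no test. In the livers of the same mice it had 7, 6 and 9 reads in controls and 339, 215 and 189 in treated mice (edgeR, adjusted p = 0.00547). A transcript of 5495 bases had 16, 27 and 17 reads in control hearts and none in the treated hearts, at least 16.03-fold lower, and it likewise reached the count minimum through the control hearts alone. It had no read in any liver.

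The livers of the same 6 mice show which heart responses were shared. In the 6 livers edgeR called 1254 transcripts higher (6.09%) and 693 lower (3.36%) of 20599 tested. Of the 95 transcripts higher in the heart, 83 were tested in the liver, where 68 had a positive fold change, 37 were called higher, 3 were called lower and 43 were not called. Over the 17376 transcripts tested in both organs, 48.3% had a positive and 51.7% a negative fold change in the liver, and 6.51% were called higher and 3.48% lower. The 83 had a median log2 fold change of 1.48 in the heart and 1.05 in the liver, against -0.02 in the liver over the 17376. Of the 23 transcripts lower in the heart, 15 were tested in the liver, of which 12 had a negative fold change and 1 was called lower. Of the 101 and 35 called without treated mouse 3, 91 and 27 were tested in the 6 livers, with 41 and 3 called in the same direction and 72 positive and 17 negative fold changes. The 4772 transcripts that passed the count minimum in the heart but not in the liver have no liver test.

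Of the named transcripts, uc011xbr.1 was higher in both organs. Its liver reads were 90, 119 and 67 in controls and 1706, 833 and 1430 in treated mice, a log2 fold change of 4.05 ± 0.35 (edgeR, adjusted p = 0.00523). The responses of heart and liver differed by 0.25 ± 0.40 on the log2 scale (edgeR, adjusted p = 0.905). For uc007daq.2 the log2 fold change in the liver was 1.05 ± 0.30 (edgeR, adjusted p = 0.0962), which differed from that in the heart by 0.20 ± 0.35 (edgeR, adjusted p = 0.928). The transcript uc008kkb.2 had 1, 4 and 1 reads in control livers and 0 in treated livers, too few to be tested there. For uc007rfe.1, liver reads were 30, 54 and 28 against 14, 21 and 22 (log2 fold change -0.78, edgeR adjusted p = 0.342).

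The response of the heart differed from that of the liver for other transcripts. The difference, heart minus liver, was tested as an interaction over the 12 libraries. It passed in the positive direction for 268 (1.21%) and in the negative direction for 439 (1.98%) of the 22148 transcripts. Of the 95 higher in the heart, 22 responded more positively and 5 more negatively in the heart than in the liver, and of the 23 lower, 4 had a more negative response. With the mouse as a block, as heart and liver of each number came from 1 animal, 3 and 10 of the tested transcripts passed and none of the 118 did. Without the block, leaving out control mouse 1, 2 or 3 or treated mouse 1 or 2 left 76 to 167 in the positive and 133 to 247 in the negative direction, and leaving out treated mouse 3 left 277 and 361. Without treated mouse 3, of the 95 higher transcripts 16 responded more positively and 5 more negatively in the heart, and of the 23 lower, 3 more negatively.

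The 3 transcripts called in opposite directions were higher in the heart and lower in the liver. One of 1334 bases, with whole heart counts, had 368, 492 and 456 reads in control hearts and 1056, 1055 and 961 in treated hearts. Its liver reads were 22285, 28656 and 22363 in controls and 13870, 13354 and 14731 in treated mice. The log2 fold changes were 1.57 in the heart and -0.63 in the liver, a difference of 2.18 ± 0.20 (edgeR, adjusted p = 0.00102, and 0.0626 with the mouse as a block). In neither organ did the groups overlap. A transcript of 2032 bases had 605, 498 and 482 reads in control hearts and 1510, 1586 and 1382 in treated hearts, while its liver reads were 26072, 35843 and 26952 against 16045, 18740 and 19845. Its responses differed by 2.36 ± 0.19 (edgeR, adjusted p = 0.000555, and 0.0626 with the block). One of 6171 bases had 1151, 1200 and 1198 reads in control hearts and 1803, 1813 and 1168 in treated hearts, against 804, 970 and 762 and 145, 195 and 304 in the livers. Its treated mouse 3 had no more reads than 2 of the controls, and lay above them only after scaling to its lower depth. Its responses differed by 2.56 ± 0.25 (edgeR, adjusted p = 0.00116, and 0.0725 with the block).

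Other transcripts changed in the heart and were not called in the liver. A transcript of 9163 bases with whole counts had 1201, 1064 and 893 reads in control hearts and 4209, 4135 and 3511 in treated hearts, a log2 fold change of 2.25 ± 0.14 (edgeR, adjusted p = 0.0185). In the liver it had 236, 332 and 191 reads against 132, 94 and 71, and the responses differed by 3.37 ± 0.35 (edgeR, adjusted p = 0.00189, and 0.0655 with the block). A lower transcript of 3426 bases had 369, 380 and 411 reads in control hearts and 54, 69 and 47 in treated hearts, and 48, 36 and 63 against 72, 75 and 63 in the livers. Its responses differed by -3.11 ± 0.43 (edgeR, adjusted p = 0.00675, and 0.0966 with the block). Both had no overlap between the heart groups, as had all 118 called transcripts. They were taken from the called whole-count transcripts with the smallest adjusted p for the organ difference. That p therefore describes them and gives no further support.

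**Figure D5:**
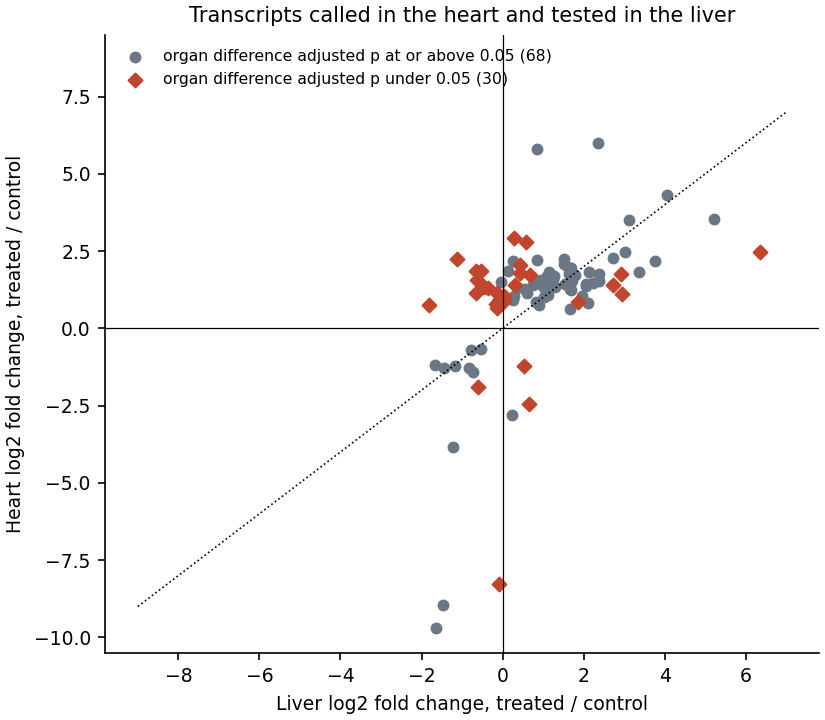
For the 98 transcripts called in the heart and tested in the liver, the log2 fold change in the heart (vertical axis) is plotted against that in the liver (horizontal axis), with red diamonds for the 30 whose responses differed between organs without the mouse as a block and gray circles for the other 68. Most of the higher transcripts lie above 0 in both organs, and the dotted line marks equal fold changes.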

How the data were processed

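RNA from 12 libraries was sequenced, of which the 6 hearts are described. Per the labels, libraries were made with a TruSeq stranded mRNA kit. The authors deposited estimated counts per transcript, not normalized. The submitters' processing notes list mm10 as the build and, as tools, DESeq2 1.20.0 and Salmon 0.8.2. The sources used here give neither the annotation release nor any trimming. The deposited TPM values, labelled so by the file headers, were not used. Salmon splits a read between the transcripts it could come from, so counts of related transcripts are not independent. Of the 2 tables in each file, the first was used and the second was an alternative.

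Estimated counts were rounded, after the minimum of 10 reads in 3 hearts was applied to the deposited values, scaled by TMM and tested with edgeR 4.0.16 (quasi-likelihood) in R 4.3.3, with DESeq2 1.42.0 and limma-voom (limma 3.58.1) as alternatives. Python 3.11.15, SciPy 1.17.1 and pandas 2.3.3 served for summaries. The SE of a log2 fold change was taken as its size over the root of F. CPM are scaled reads per 1000000. Fits were tested on simulated counts.

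Named transcripts had an adjusted p under 0.05 by edgeR, DESeq2 and limma-voom, a mean of at least 1 CPM and no overlap between groups. In each direction the smallest p and, of the others, the highest mean were taken. The rule also allowed for gene lists, which could not be applied. The transcripts, rules and alternatives were chosen with earlier results of these data known. Counts were called whole only below 100000. Heart and liver share the mouse, from the sample names. No source pairs a control with a treated mouse. Alternatives were other scaling, filters, thresholds and tests, whole counts alone, all libraries in 1 fit, a block, and leaving out each heart or mouse. Heart libraries held 12618288 to 20533986 reads.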

Additional observations from a re-analysis of the deposited data

Results flagged for a closer look

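The response to TDI-011536 differed between heart and liver, by the interaction of organ and treatment (edgeR, adjusted p under 0.05), for 268 transcripts with the more positive response in the heart and for 439 with the more negative, of the 22148 that passed the count minimum in the heart. With the mouse as a block these were 3 and 10.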

How the results depend on the processing

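No alternative reversed the direction of a named transcript. Counts were compared for size only. Within a factor of 1.5, the higher count held in 13 alternatives and moved in 19. The 13 include whole-count fits without 1 heart, where 89 to 134 of 3510 transcripts were set against 95 of 22148. Those fits tested another set of transcripts, so a like count there is no sign that the 95 held. The lower count held in 6 and moved in 26. The 95 higher transcripts were 143 with a minimum of 50 reads, 783 with DESeq2, 224 with limma-voom and sample quality weights, 166 among whole counts and 152 with bias-adjusted deviances, which, as were the DESeq2 and whole-count fits without 1 heart, was chosen after seeing the data. The 23 lower ones were 12 with no filter, 38 with a minimum of 50, 444 with DESeq2, 63 with quality weights, 130 among whole counts and 43 in 1 fit of 12 libraries. At an adjusted p under 0.01 edgeR called 0 and 0. Without 1 heart, edgeR called 0 to 101 higher and 0 to 35 lower. DESeq2 called 658, 635 and 704 higher and 221, 202 and 206 lower without control mouse 1, 2 or 3, and 706, 768 and 1124 higher and 593, 613 and 983 lower without treated mouse 1, 2 or 3. Among whole counts, edgeR called 89 to 234 higher and 38 to 225 lower without 1 heart (45 lower without control mouse 3, 79 without treated mouse 2). The differences between organs, 268 and 439, were 1124 and 1129 with DESeq2, and the first was 168 with no filter. Without 1 mouse they ranged from 76 to 277 and from 133 to 361.

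Same-numbered control and treated hearts did not deviate together (correlations -0.011, -0.005 and 0.031, against -0.034 to 0.046 for other numbers). Heart and liver of the same mouse gave 0.035, 0.021 and 0.009 in controls and -0.007, -0.003 and -0.022 in treated mice. As these known pairs gave values as small, the correlations cannot decide whether the numbers pair the hearts. With the number as a replicate block edgeR called 0 higher and 0 lower, with 1033 and 699 at an unadjusted p under 0.05. For the organ difference, the mouse as a block left 3 and 10. Of 96 alternatives for the 4 named transcripts, 27 lost the call, 20 of them without a heart other than treated mouse 3, 4 under the block, 2 in 1 fit of 12 libraries (uc007daq.2 and uc007rfe.1) and 1 with no filter (uc007rfe.1). Below 1 CPM edgeR called none and DESeq2 33 higher and 37 lower.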

Other observations

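Among the tested transcripts, 32 had no read in any control heart after rounding and 58 had none in any treated heart, and by the count minimum each then had at least 10 reads in all 3 hearts of the other group. The summed reads of that other group had medians of 90 and 118 and reached 728 and 1681. Only 1 of the 32 and 1 of the 58 had whole counts. DESeq2 called all 32 and all 58, whereas edgeR called 0 of the 32 and 4 of the 58. As each had to differ to be tested, these calls are no support for a change. The 3343-base transcript with 115 reads in every control heart had 115, 0 and 228 reads in control livers and 0, 0 and 115 in treated livers, all estimated counts of divided reads.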
